A study of Hordeum vulgare with 18 samples.

Results

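A set of 76 barley genes had reads in every spike library at stage 49, when the first awns are visible. In all 3 genotypes they had few or no reads in every library at stage 59, when the whole spike has emerged. The members were chosen by their normalized counts: at least 20 in all 9 libraries of stage 49 and below 10 in all 9 libraries of stage 59. Of 24211 features whose identifiers begin with MLOC, 76 met both conditions, or 0.314%, and the whole table holds 26066 features. The stage difference is therefore given as a description, with no test. RNA came from whole spikes of the cultivar Golden Promise grown in field plots. In KD-CKX1 5.8 (line 5.8) and KD-CKX1 17_10 (line 17_10), which are separate transgenic lines, HvCKX1 was silenced, and an azygous control carried no transgene. Spikes of each genotype were taken at 2 points of the BBCH scale of cereal development, stages 59 and 49. Every genotype and stage was sequenced in 3 libraries, described by the submitters as biological replicates. The sources used here do not say how many spikes or plants made up a library.

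At stage 49 the first awns are visible and most of the spike is still inside the sheath of the flag leaf. At stage 59 the whole spike has emerged. Around heading, awns and floral bracts complete their growth, anthers and pollen mature and the ovary becomes ready for fertilization. HvCKX1 encodes a cytokinin oxidase/dehydrogenase, which degrades the growth hormones called cytokinins. The file pairs no identifier with a gene name, and 0 of the 76 identifiers matched the reference table of 58438 barley genes. Functions and sequences of the 76 genes are therefore not described, and neither the silencing of HvCKX1 nor the labelled tissue could be checked through marker genes. The construct and promoter used for silencing are likewise not described in the labels.

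Libraries held between 24459652 and 106034579 recovered reads, and 1 read was worth 0.551 to 2.23 normalized counts. Library 2 of line 5.8 at stage 49 stood apart from the 17 others on the second principal component of the 20798 other features tested, at 153.6 against -72.88 to 43.36. That component held 10.1% of the variance. Several results that rest on this library are given with and without it, while most values of single genes include it.

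The 76 genes together had 107.2 to 218.4 normalized counts per library at stage 59, against 12015 to 83989.7 at stage 49. At stage 49 they made up 0.107 ± 0.0382% of all normalized counts in line 5.8, 0.0473 ± 0.0191% in line 17_10 and 0.0551 ± 0.058% in the control (SD, n = 3). Without replicate 2 of the control its mean share was 0.0216%. These are genes of low to moderate level at stage 49, with means over 9 libraries of 30.4 to 3650 and a median of 231.8. Means of at least 1000 were seen in 10 genes and means below 100 in 20. The stage 59 mean amounted to 0 to 14% of the stage 49 mean, with a median of 0.73%, and it was under 1% in 42 genes. In whole spikes, fewer cells of a type and less RNA per cell cannot be told apart.

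**Figure D1:**
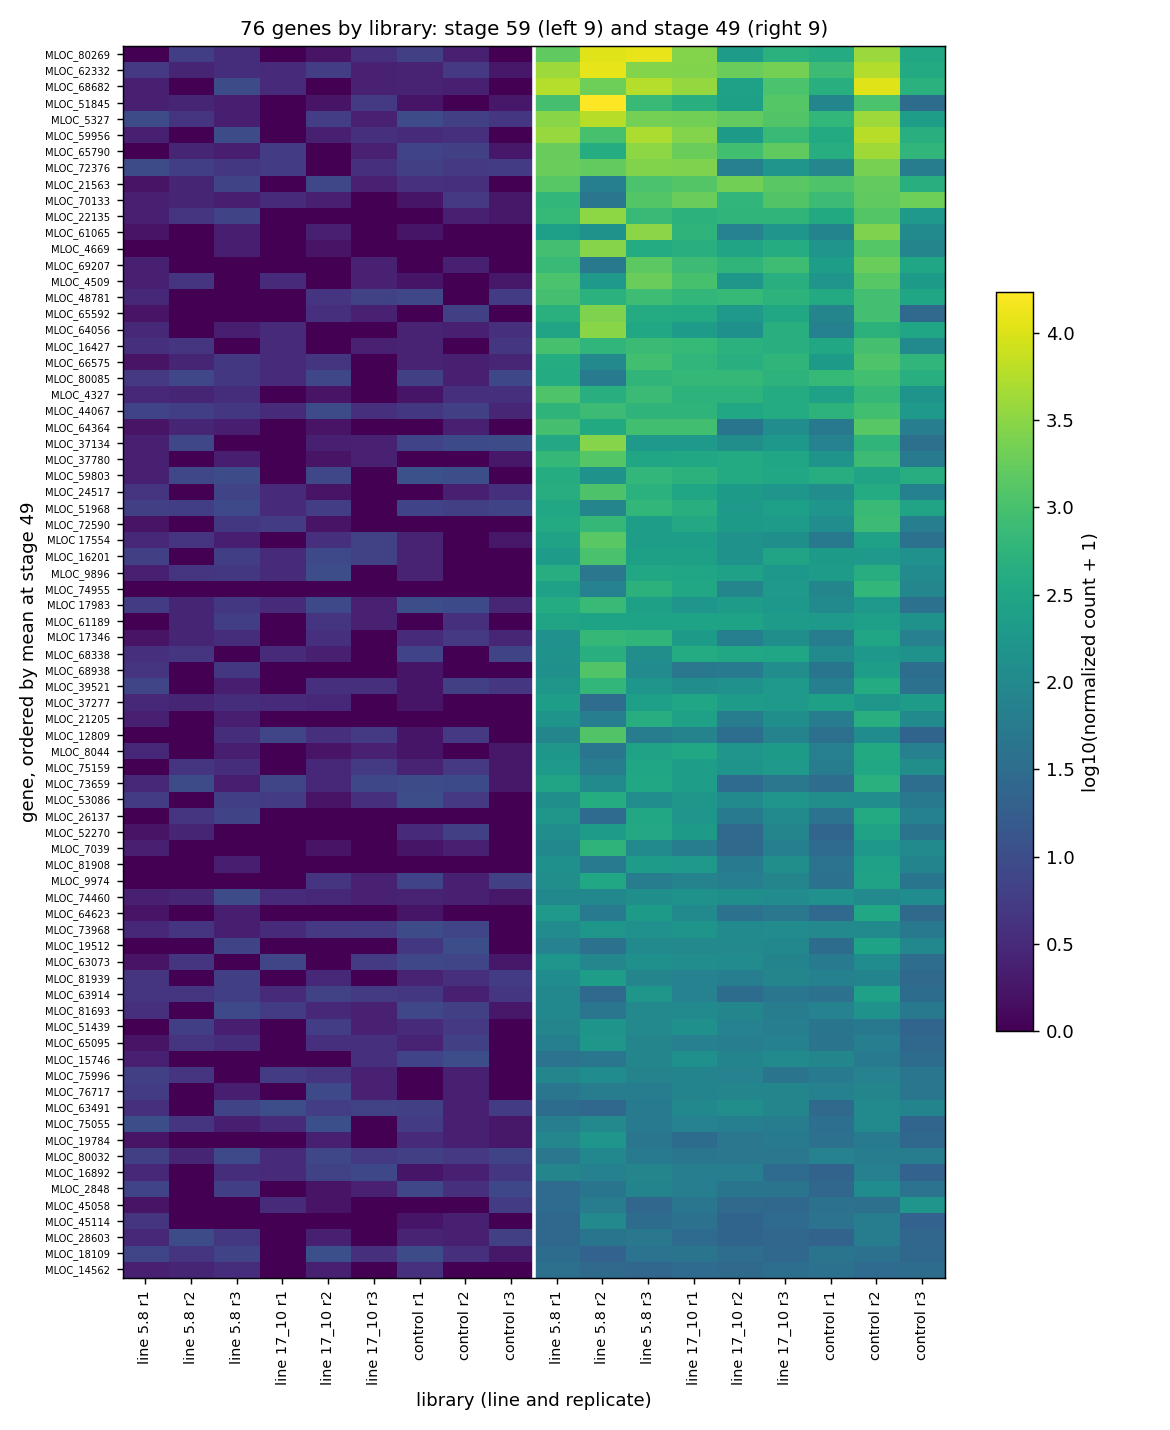
Level of each of the 76 genes (rows, ordered by mean at stage 49) in each library (columns), as log10(normalized count + 1), with the 9 libraries of stage 59 on the left and the 9 of stage 49 on the right. Every stage 59 value lies below 10 normalized counts by the choice of the genes, while the stage 49 values of one gene can differ many-fold between libraries.

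The most abundant member was MLOC_80269. It had 0, 5.19 and 2.52 normalized counts in line 5.8 at stage 59, 0, 0.685 and 2.87 in line 17_10, and 5.38, 1.33 and 0 in the control. At stage 49 it had 1578, 10625 and 12453 in line 5.8, 2807, 205.3 and 493.6 in line 17_10, and 405, 3960 and 327.7 in the control. The stage 59 mean was 0.0547% of the stage 49 mean, and the 3 genotypes overlapped at both stages. Within stage 49, however, the lowest and the highest library differed 60.7-fold.

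MLOC_62332 was second, with 0.905 to 4.79 normalized counts at stage 59 (median 2.23). At stage 49 it had 4153, 12044 and 2825 in line 5.8, 2687, 1847 and 2259 in line 17_10, and 794.6, 5573 and 382.1 in the control. Line 17_10 was even across its replicates here, while line 5.8 and the control were not. Reads of MLOC_62332 were found in all 9 stage 59 libraries, 24 reads in total.

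MLOC_68682 reached 8.81 normalized counts in 1 stage 59 library (line 5.8 replicate 3) and 0 to 2.23 in the 8 others. At stage 49 it had 5698, 2020 and 5780 in line 5.8, 3670, 263.6 and 1067 in line 17_10, and 470.6, 10686 and 505.4 in the control. Its highest and lowest stage 49 values stood in different genotypes from those of MLOC_62332, with the control holding the highest.

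MLOC_51845 was the most uneven member. It had 0 to 4.31 normalized counts at stage 59 (median 0.905). At stage 49 it had 963.8, 17037 and 736.9 in line 5.8, 451.2, 256 and 1281 in line 17_10, and 88.2, 1071 and 30.2 in the control. The highest library was thus 564-fold above the lowest, and replicate 2 of line 5.8 alone held most of the counts. Without that library the stage 49 mean was 609.8, against 2435 with it.

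MLOC_5327 had 0 to 8.46 normalized counts at stage 59 (median 3.62). At stage 49 it had 2965, 5947 and 2219 in line 5.8, 2109, 1666 and 1206 in line 17_10, and 640.3, 4108 and 229.7 in the control. Of the 10 genes with a mean of at least 1000, the other 5 were MLOC_59956, MLOC_65790, MLOC_72376, MLOC_21563 and MLOC_70133, at stage 49 means of 2292, 1687, 1274, 1180 and 1109. The 5 highest members took 12.3 to 56.8% of the set's counts in a stage 49 library.

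**Figure D2:**
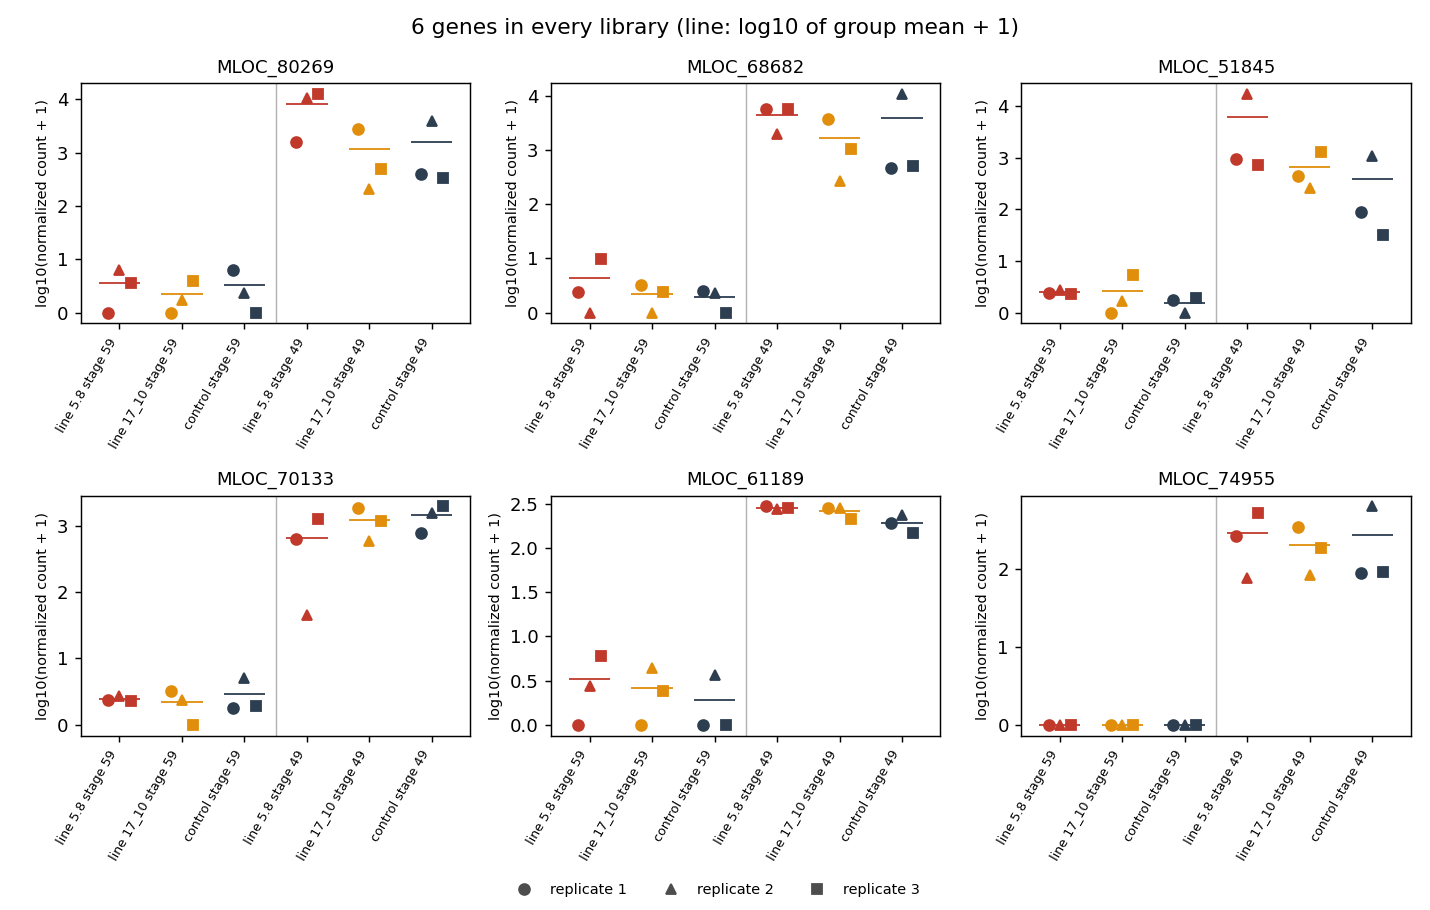
Values of 6 genes in all 18 libraries as log10(normalized count + 1), with stage 59 groups left of stage 49 groups, one symbol per replicate number and a bar at the group mean. MLOC_51845 is highest in line 5.8 replicate 2 and MLOC_70133 is lowest there. MLOC_61189 ranges 2.02-fold across stage 49, and MLOC_74955 is at 0 in all 9 libraries of stage 59.

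Silence at stage 59 was complete in 1 gene. MLOC_74955 had 0 reads in all 9 libraries of that stage, against 267.7, 75.1 and 525.7 normalized counts at stage 49 in line 5.8, 346.2, 82 and 186.5 in line 17_10, and 87.6, 633.9 and 89.5 in the control. Set against a floor of 3 reads per library, its stage 59 level was at least 69.4-fold lower. MLOC_81908 kept 1 read, MLOC_4669 kept 2, and MLOC_21205 and MLOC_64623 kept 3 each over the 9 stage 59 libraries. The mean of MLOC_4669 at stage 59 was lower by a factor of 3582 than at stage 49 (95% exact Poisson interval 992 to 29580.3), the widest ratio in the set among genes with a read. That of MLOC_81908 was lower by a factor of 908 (95% exact Poisson interval 163 to 35872.5). Such intervals and floors cover counting error only.

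Most members kept traces. The set's genes had a median of 17 reads over the 9 stage 59 libraries and at most 47, and 7 genes had reads in all 9. The number of members without a read in a library ran from 12 to 43 of 76. The library with 43 was line 17_10 replicate 1, the shallowest at 24459652 reads, and the library with 12 was line 5.8 replicate 1, at 78214174 reads. Control replicate 3 had 34 members without a read at 56866720 reads. The part of depth in these counts was not tested, and genotypes were not compared by them. More than 5% of the stage 49 mean was left in 6 genes, all with stage 49 means below 100, among them MLOC_18109 (14%) and MLOC_80032 (8.29%).

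The thresholds cut through a continuum. Just inside, MLOC_18109 had a lowest stage 49 value of 20.3 and MLOC_16892 one of 20.6. MLOC_59803 had a highest stage 59 value of 10 to the nearest whole count (9.999) and MLOC_18109 one of 9.59. Just outside, MLOC_23483 and MLOC_36515 missed the stage 49 condition with lowest values of 19.9 and 19.4. MLOC_64926 and MLOC_62290 missed the stage 59 condition, each with 10.1 in line 5.8 replicate 3. Of 16820 MLOC features with at least 20 normalized counts throughout stage 49, the 76 made up 0.452%. The mirror condition, at least 20 throughout stage 59 and below 10 throughout stage 49, was met by 112 MLOC features.

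Replicates of stage 49 differed widely in these genes. The coefficient of variation over the 9 libraries (SD divided by mean) had a median of 0.722 and ran from 0.133 to 2.26. The other 16744 MLOC features with at least 20 normalized counts throughout stage 49 had a median of 0.181, at a higher median level of 1257. Without replicate 2 of line 5.8 the medians were 0.544 and 0.136. The highest stage 49 value was at least 10-fold above the lowest in 35 of 76 genes, and less than 3-fold above it in 8. The difference in spread was not tested, since steep stage changes chose the genes.

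A few libraries held many of the extreme values. The spread did not rest on line 5.8 replicate 2 alone, since without it the median coefficient of variation was 0.544, against 0.136 in the other features. Replicate 2 of line 5.8 held the highest of the 9 values in 29 genes and the lowest in 18. Replicate 2 of the control held the highest in 24 genes and the lowest in 0. Replicate 3 of the control held the lowest in 34 genes and replicate 1 of the control in 13. Such counts of highest and lowest values were not made over other features. Within the control, replicate 2 was above both other replicates in 65 of 76 members (85.5%), against 43.4% of the other features with at least 20 normalized counts throughout stage 49. Its ratio to the mean of replicates 1 and 3 had a median of 3.54 over the members and reached 31.1 in MLOC_72376. In MLOC_45058 it was 0.359, the lowest, with 159.6 normalized counts in replicate 3.

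Line 5.8 replicate 2 divided the set. In 18 members it was at least 4 times the median of the other 8 stage 49 libraries, in 10 members at most 0.25 times, and in 48 in between. These shares were 23.7% and 13.2%, against 2.43% and 4.22% of the other features with at least 20 normalized counts at stage 49. This division was made after the values were seen and is a description.

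Among the 18 genes at least 4 times the median in that library were MLOC_51845, MLOC_12809 and MLOC_37134, which also had the highest coefficients of variation of the set. Not all 18 were highest there: MLOC_80269 had 10625 in that library and 12453 in line 5.8 replicate 3. MLOC_12809 had 87.2, 1199 and 61.1 normalized counts in line 5.8 at stage 49, 77.1, 33 and 77.5 in line 17_10, and 35.8, 111.3 and 21.8 in the control. MLOC_37134 had 358.6, 2935 and 183.9 in line 5.8, 184.2, 121.7 and 180.8 in line 17_10, and 73.3, 594 and 35.1 in the control. In both genes the next highest library was replicate 2 of the control. In 17 of the 18, replicate 2 of the control was above its 2 companions. The same held in 8 of the 10 genes at most 0.25 times the median and in 40 of the 48 in between, so it did not set the 18 apart.

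Among the 10 genes lowered in that library were MLOC_70133, MLOC_21563 and MLOC_65790. MLOC_70133 had 638.8, 45.1 and 1270 normalized counts in line 5.8 at stage 49, 1850, 600.7 and 1208 in line 17_10, and 798.4, 1592 and 1982 in the control. MLOC_21563 had 1353, 67.2 and 1086 in line 5.8, 1273, 2149 and 1426 in line 17_10, and 1183, 1628 and 457.1 in the control. In line 5.8 replicate 2 these genes stood at 0.0364 and 0.0511 times the median of the other 8 libraries, and in both it was the lowest of the 9. MLOC_65790 had 1798, 413.5 and 3248 in line 5.8, 1944, 890.5 and 1587 in line 17_10, and 438.1, 4250 and 610.6 in the control. It was thus low in 3 libraries, replicate 2 of line 5.8 and replicates 1 and 3 of the control.

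**Figure D3:**
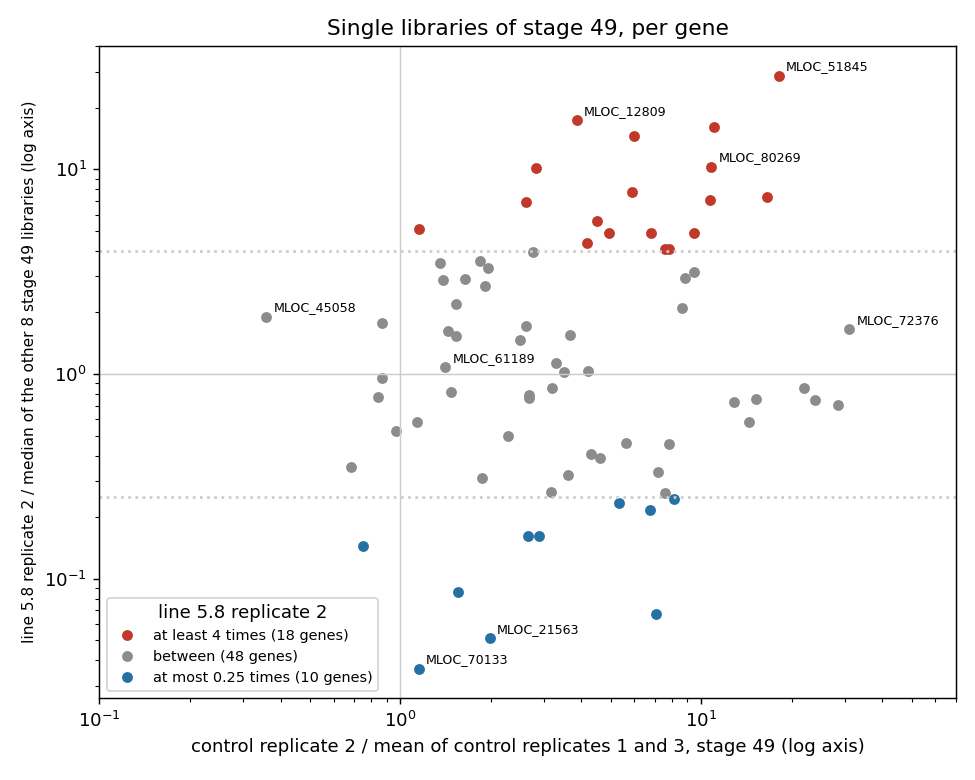
Each point is one of the 76 genes at stage 49, on log axes: the ratio of control replicate 2 to the mean of control replicates 1 and 3 (x) and the ratio of line 5.8 replicate 2 to the median of the other 8 libraries (y), with dotted lines at 4 and 0.25. Most points lie right of 1, while 18 genes lie above 4 and 10 below 0.25 on the y axis.

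A further group moved with replicate 1 of line 17_10. In 7 genes that library was at least 4 times the mean of replicates 2 and 3 of its line: MLOC_72376, MLOC_64364, MLOC_80269, MLOC_59956, MLOC_73659, MLOC_68682 and MLOC_61065. MLOC_72376 showed it most, with 1820, 1650 and 2697 normalized counts in line 5.8 at stage 49, 2588, 68.4 and 166.4 in line 17_10, and 90.4, 2327 and 59.2 in the control. It was high in 5 libraries drawn from all 3 genotypes and low in the other 4. MLOC_64364 had 962.5, 372.9 and 901.8 in line 5.8, 876.5, 43.9 and 117.7 in line 17_10, and 50.7, 1370 and 64.1 in the control. The same 5 libraries were its highest. In all 7 genes the ratio of control replicate 2 to its companions was also high, from 10.8 to 31.1.

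Some members were steady. MLOC_14562 had the lowest coefficient of variation (0.133), with 36.1, 28.3 and 23.9 normalized counts in line 5.8 at stage 49, 28.9, 27.9 and 32.5 in line 17_10, and 36.4, 29 and 30.2 in the control. MLOC_74460 followed at 0.165, with stage 49 values of 93.7 to 150.4 (median 113.7) and stage 59 values of 0.905 to 8.81 (median 1.54). MLOC_61189, at 0.211, had 297.6, 281.9 and 283.5 in line 5.8, 285.4, 288.9 and 215.2 in line 17_10, and 194.5, 240.6 and 147.5 in the control. In these genes line 5.8 replicate 2 lay at 0.774 to 1.08 times the median of the other 8 libraries. In MLOC_61189, however, all line 5.8 values lay above all control values. The set thus held both genes that were uneven and genes that were even among stage 49 spikes.

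Some pairs of members had closely similar profiles across stage 49 libraries. The log2 values of MLOC_65592 and MLOC_62332 correlated at r = 0.995 over the 9 libraries (0.992 without line 5.8 replicate 2), and those of MLOC_68682 and MLOC_59956 at 0.989 (0.994). MLOC_68682 stood at 1.12 to 1.99 times MLOC_59956 in the 9 libraries, although both ranged more than 10-fold. MLOC_65592 stood at 0.0696 to 0.219 times MLOC_62332. The reads of near-identical copies could be shared in such pairs, which was not tested. Over all 2850 pairs the median r was 0.41, from -0.88 to 0.995, with 188 pairs above 0.9 and 744 below 0. Without line 5.8 replicate 2 the median was 0.58, with 269 pairs above 0.9 and 461 below 0. These are descriptions over 9 libraries that share stage and the scaling by size factors.

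For MLOC_80269, the features outside the set with the most similar log2 values over all 18 libraries were MLOC_7698 (r = 0.977), MLOC_64583 (r = 0.973) and MLOC_70795 (r = 0.973). The stage change that chose MLOC_80269 enters these values, and over the 9 stage 49 libraries alone r was 0.906, 0.898 and 0.754 in the same order. MLOC_7698 had 0 in all stage 59 libraries and 13.3 to 69.8 normalized counts at stage 49, so its lowest library kept it out. MLOC_64583 had at most 0.685 at stage 59 and 6.05 to 69.5 at stage 49. MLOC_70795 had up to 55.4 at stage 59 and 188.6 to 1140 at stage 49.

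The median level of the set was set beside the position of each stage 49 library among all samples. On the first principal component of the 20798 other features tested, which held 66.4% of the variance, stage 59 libraries lay between 97.4 and 152.7. Stage 49 libraries lay between -155.6 and -84.8. The control replicates 3 and 1 were the nearest to stage 59, at -84.8 and -107.8, and had the lowest median levels of the set, 70.1 and 77.4 normalized counts. Control replicate 2 lay at -152.6 and had the highest median, 320. The 3 libraries of line 17_10 lay at -122.2, -126.1 and -131.5 with medians of 223, 121 and 165. Those of line 5.8 lay at -133.1, -155.6 and -133.1 with medians of 198, 169 and 267. Line 5.8 replicate 2, the library farthest from stage 59, thus had a lower median than 4 of the 8 other libraries, so the order of medians did not follow the component throughout. The stage change separates the libraries on this component and chose the genes, so the 2 measures are not independent.

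**Figure D4:**
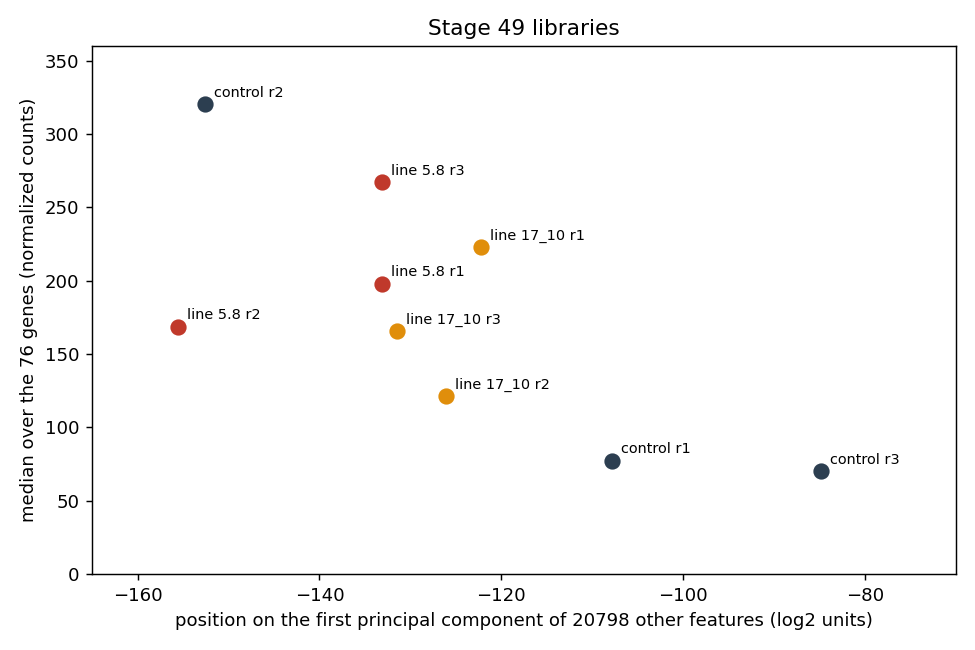
Median level of the 76 genes (normalized counts) in each stage 49 library against the position of that library on the first principal component of 20798 other features. Control replicates 1 and 3 lie farthest right, toward the stage 59 libraries, with medians of 77.4 and 70.1, and control replicate 2 lies at the left with 320. Line 5.8 replicate 2 lies farthest left with a median of 169.

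The choice of the genes did not compare genotypes, but it set a floor on every stage 49 library of each genotype. Control replicate 3 at stage 49 alone kept out 28 features, and line 5.8 replicate 2 alone kept out 26. The counts of members below therefore describe a set cut by the values compared, while the features beside them were not cut this way. Genotypes at stage 49 were tested in a limma fit of all 20874 features that reached 10 normalized counts in 3 libraries. The choice of the members makes all 76 pass that filter. In line 5.8 against the control, 0 of 76 members passed an adjusted p of 0.05 (lowest adjusted p = 0.26), where 0.431% of all features tested did. At an unadjusted p below 0.05 there were 17 members, against 14.9% of all features. The log2 difference was positive in 58 members (76.3%, against 49.2% of all features) and negative in 18. Its median was 0.81 over the members and -0.0049 over all features tested. Many members rose and fell together over the same libraries, so they are not independent observations of a genotype. The members' median was 1.34 without control replicate 2, 0.56 without control replicate 1 and 0.42 without control replicate 3. Without line 5.8 replicate 2 it was 0.81 (lowest limma adjusted p = 0.58). It was 0.50 by edgeR and 0.51 by DESeq2 on recovered reads. All 3 line values lay above all 3 control values in 10 members, against 7.18% of all features, and below in 0, against 5.76%. The comparisons of the 2 lines with the control share the control libraries.

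The largest separation without overlap was in MLOC 17983, an identifier written with a space in the table. It had 401, 741.4 and 250.5 normalized counts in line 5.8 at stage 49, against 102.5, 192.8 and 37.5 in the control. The means were 464.3 ± 251.5 and 110.9 ± 78 (SD, n = 3; log2 difference 2.20, SE 0.66, limma adjusted p = 0.26). MLOC_24517 averaged 685.5 ± 371.6 in line 5.8 and 195 ± 175.4 in the control (log2 difference 2.06, SE 0.79, limma adjusted p = 0.29). MLOC_51439 averaged 111.6 ± 35 in line 5.8 and 38.5 ± 14 in the control (log2 difference 1.54, SE 0.76, limma adjusted p = 0.35). In these 3 genes the line values lay above all control values, and none passed the adjustment over all 20874 features.

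Same-numbered libraries of line 5.8 and the control tended to deviate together at stage 49, so each pair was also read on its own. This alternative was added after the data were seen, and it assumes that equal replicate numbers belong together. Line 5.8 was higher in all 3 pairs in 28 members, against 24.2% of all features, and lower in all 3 in 2 members, against 22.5%. MLOC 17554 was 5.46, 5.37 and 6 times the control in pairs 1, 2 and 3. MLOC_37134 was 4.89, 4.94 and 5.24 times the control, and MLOC_51845 was 10.9, 15.9 and 24.4 times the control. In these genes the unpaired groups overlapped, while the ratio within pairs moved little in the first and the second. For MLOC 17983 the ratios were 3.91, 3.85 and 6.68. With the replicate number as a block, limma called 0 members (lowest adjusted p = 0.11) and 0% of all features. At an unadjusted p below 0.05 this fit had 21 members, against 19.7% of all features.

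Control replicate 2 decided the count of calls. Without it, 11 members passed, all higher in line 5.8, where 2.54% of all features were called higher. They were MLOC_51845, MLOC_72376, MLOC_65592, MLOC_64364, MLOC 17554, MLOC_62332, MLOC_5327, MLOC_4669, MLOC_37780, MLOC 17983 and MLOC_4327. The differences then ran from 1.89 in MLOC_4327 (limma adjusted p = 0.046) to 5.44 in MLOC_51845 (limma adjusted p = 0.024) on the log2 scale. The 2 control libraries that remained lay at -107.8 and -84.8 on the first component, and those of line 5.8 at -155.6 to -133.1. Genotype and position along the stage axis cannot be told apart in that comparison, nor in the one with all 18 libraries. DESeq2 on recovered reads called 1 member, MLOC 17983 (DESeq2 adjusted p = 0.0496), where it called 1.67% of all features. Over the 14 alternatives run, the adjusted p ran from 0.047 to 0.88 for MLOC 17983 and from 0.046 to 0.88 for MLOC_4327. For MLOC_51845 it ran from 0.024 to 0.88 over the 13 alternatives that gave it one.

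In line 17_10 against the control at stage 49, 0 of 76 members passed (lowest limma adjusted p = 1), where 0.211% of all features did, and 0 members had an unadjusted p below 0.05, against 1.6% of all features. The difference was positive in 54 (71.1%, against 50.7% of all features) and negative in 22 members, with a median of 0.28, against 0.0022 over all features. By edgeR and DESeq2 on recovered reads the median was -0.093 and -0.097, and without control replicate 3 it was -0.046 by limma, so its direction was not stable. All 3 line values lay above the control in 2 members, MLOC_68338 and MLOC_51439, against 2.97% of all features. MLOC_68338 averaged 342.1 ± 47 in line 17_10 and 144.5 ± 35.7 in the control (SD, n = 3; log2 difference 1.26, SE 0.78, limma adjusted p = 1). MLOC_80032 alone lay below the control, against 3.04% of all features, at 46.5 ± 2.2 in line 17_10 and 63.7 ± 9.8 in the control.

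Line 17_10 against line 5.8 at stage 49 likewise gave 0 members past the threshold (lowest limma adjusted p = 0.29), where 0.426% of all features passed. At an unadjusted p below 0.05 there were 4 members, against 14.7% of all features. The difference was negative in 54 members and positive in 22 (28.9%, against 50.7% of all features), with a median of -0.54 against 0.0065 over all features. The most negative was MLOC_80269, at 1169 ± 1426 in line 17_10 and 8219 ± 5823 in line 5.8 (SD, n = 3; log2 difference -3.17, SE 1.18, limma adjusted p = 0.29). Values of line 17_10 lay below all 3 of line 5.8 in 9 members, against 13.9% of all features, and above in 2, against 10.2%. Without line 5.8 replicate 2 this comparison had a median of -0.49 over the members and a lowest limma adjusted p of 0.78. A missed threshold at these spreads does not show that the genotypes were alike.

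**Figure D5:**
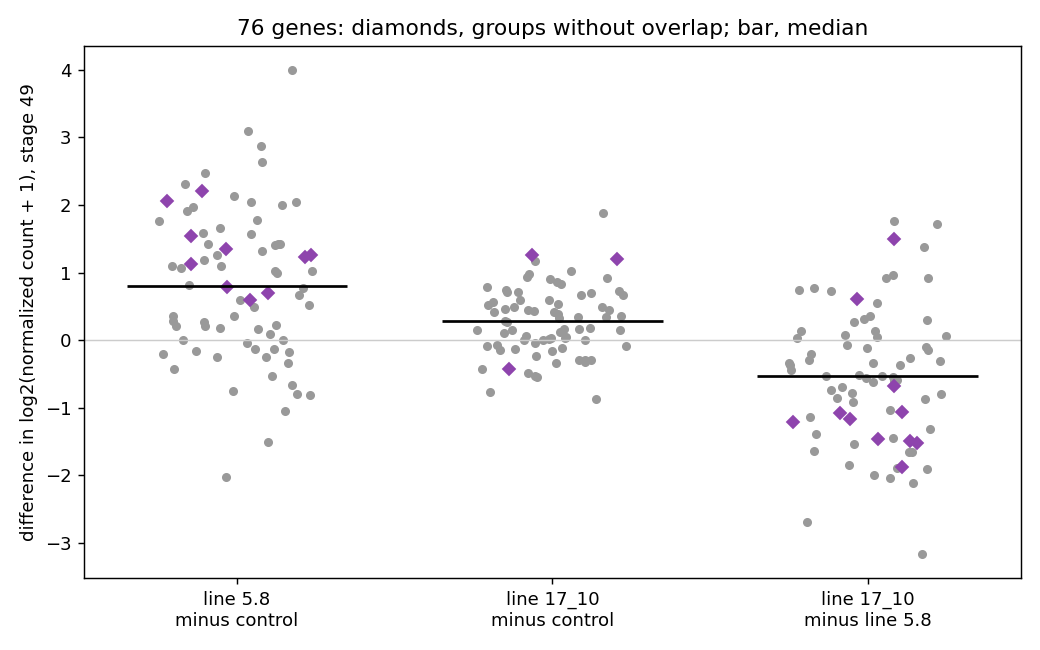
Difference in log2(normalized count + 1) of each of the 76 genes at stage 49 for line 5.8 minus control, line 17_10 minus control and line 17_10 minus line 5.8, with bars at the medians of 0.81, 0.28 and -0.54. Diamonds mark genes whose 3 values do not overlap those of the other group, and 0 genes passed the adjusted threshold in any of the 3 comparisons.

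At stage 59, where all values lie below 10 by the choice of the genes, 0 of 76 members passed in each comparison by limma. The fit gave each gene a single spread over the libraries of both stages. The wide spread of the members at the earlier stage therefore entered these tests. The share of all features called was 0.321% for line 5.8 against the control, 0.206% for line 17_10 against the control and 0.345% for line 17_10 against line 5.8. At an unadjusted p below 0.05 there was 1 member for line 5.8 against the control, where 16.4% of all features had one. There were 5 members for line 17_10 against the control, where 6.39% did, and 4 for line 17_10 against line 5.8, where 10.2% did. Over the 9 libraries a member had at most 47 reads at this stage, and the part of depth in these counts was not tested. With values capped by the choice of the genes and a spread shared between stages, these counts cannot show whether genotypes differed here.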

How the data were processed

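Gene expression was measured by mRNA sequencing of 18 whole-spike libraries. The values are a normalized signal: per the labels, the authors divided the counts of each gene by DESeq size factors, and deposited 1 column for each library. STAR 2.4.2a, Subread 1.5.2 and DESeq2 appear in the submitters' processing notes, without their roles. Neither genome build and annotation nor the strand setting and the handling of multiply aligned reads were stated. All values (100%) were whole multiples of the smallest value in their library within 0.001 reads, so whole reads were recovered for count tests.

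Values were fitted as log2(normalized count + 1), which understates changes of low genes, with limma 3.58.1 in R 4.3.3. The fit had 6 group means, a mean-variance trend, two-sided tests and Benjamini-Hochberg adjustment over 20874 features. P-values rest on a spread per gene pooled over all 6 groups, including the stage at which the choice of genes held members low. They therefore do not measure the spread of the compared libraries alone. With the compared groups alone, the members' lowest limma adjusted p at stage 49 was 0.65 for line 5.8 against control. The main fit gave 0.26. It was 0.38 for line 17_10 against line 5.8, where the main fit gave 0.29. For line 17_10 against control it was 0.62, lower than in the main fit. On 20874 simulated features the fit recovered 38% of 2-fold, 70% of 4-fold, 92% of 8-fold and 92% of 16-fold changes, with 7 false calls. Mean levels were those of line 5.8 and control at stage 49, and spreads per gene were estimated over all 18 libraries. The simulated libraries had no stage change and no outlying library. The changed features were drawn at random from all those tested and not from the more variable members. Neither the shares nor the false calls therefore carry over to the set. Alternatives used edgeR 4.0.16 and DESeq2 1.42.0 on recovered reads. Same-numbered libraries of line 5.8 and control at stage 49 tended to deviate together (r = 0.15, 0.39 and 0.4), while those of line 17_10 did so with neither. These correlations were not tested. The labels give replicate numbers only, so pairing by number is an assumption.

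Named genes were the 10 highest members, those of lowest and highest variation, those at 0 or nearest the thresholds, and those with the largest differences without overlap. Others were chosen after their values were seen. The members and lists were chosen with earlier results of these data known.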

Additional observations from a re-analysis of the deposited data

How the results depend on the processing

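The number of members was 43 with thresholds of 40 and 10, and 28 with 20 and 5. With TMM scaling 75 of the 76 remained. Leaving out each library in turn gave 76 to 107 members, with 107 without line 5.8 stage 59 replicate 3. Members called in line 5.8 against control at stage 49 ran from 0 to 11 when each replicate was left out (11 without control replicate 2, 0 otherwise), and the count was 1 by DESeq2. In the 2 other stage 49 comparisons the count was 0 under every alternative run. With the replicate block it was 0 in all 3 comparisons, where 0 of all 20874 features were called, so this count says nothing about the members. The share of line 5.8 ran from 0.0867 to 0.125%, that of line 17_10 from 0.0368 to 0.0556% and that of the control from 0.0216 to 0.0723% when a replicate was left out. The lowest control value, 0.0216%, was that without replicate 2. Depth limits values under about 3 reads per library at stage 59.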

Other observations

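A total of 123 MLOC features missed the conditions in exactly 1 of the 18 libraries, and 3 libraries accounted for most of them. These features were named after their values were seen, and are given as values. Line 5.8 replicate 3 at stage 59 alone kept out 31 features. Among them MLOC_76508 had 700.6 normalized counts in that library and at most 8.65 in the 8 other stage 59 libraries, with at least 410 throughout stage 49. Control replicate 3 at stage 49 kept out 28, among them MLOC_65041, which had 9.67 there and at least 36.4 in the 8 other stage 49 libraries. Line 5.8 replicate 2 at stage 49 kept out 26, among them MLOC_14136, which had 0 reads there, at least 386.3 normalized counts in the 8 other libraries of stage 49 and at most 2.06 at stage 59. On the first principal component of the other features, line 5.8 replicate 3 lay at 97.4 and line 17_10 replicate 2 at 97.5, with the other 7 stage 59 libraries at 118.3 to 152.7.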
